A study of Mus musculus with 6 samples.

Results

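The genes described here encode the proteins of the cytosolic ribosome. They were taken by name alone, as the protein-coding mouse genes of the GENCODE M21 annotation whose symbols start with Rpl or Rps and a number, with or without a final a, x or l, together with Rplp0, Rplp1, Rplp2, Rpsa, Rpl36al, Rpl7l1 and Rps27rt. The Rps6k kinase genes were left out. The rule found 83 of the 53715 mouse genes in the deposited table, 51 for the large and 32 for the small subunit. RNA was sequenced from the cerebella of male wild-type C57BL/6 mice fed either a low-Mn diet, labelled as 0 ppm Mn, or a normal-Mn diet with 35 ppm Mn for 2 weeks, with 1 cerebellum and 1 library per mouse and 3 mice per diet. All of the mice were 4 weeks old at purchase and were kept on the diet with 35 ppm Mn beforehand. The methods of the study describe the 3 mice per diet as biological replicates, while a figure legend calls them technical triplicates, and in the latter case the p-values given here measure technical spread alone. Because whole cerebella were used, fewer cells of a type and less RNA per cell cannot be told apart.

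The ribosome consists of a small subunit, which holds the mRNA and matches tRNAs to its codons, and a large subunit, which joins amino acids into protein. Each subunit is ribosomal RNA packed with a set of proteins that are mostly present in a single copy, so that cells make these proteins in matching amounts from very abundant mRNAs. Many of these mRNAs start with a C and an unbroken run of pyrimidines, the 5′ terminal oligopyrimidine (TOP) tract, through which the kinase complex mTORC1 adjusts their translation. In neurons, mRNAs of ribosomal proteins are also carried into axons and dendrites.

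The libraries held between 14548336 and 21277469 expected counts, and their TMM scaling factors lay between 0.989 and 1.01. Levels are given as CPM, counts per 1000000 of the scaled library total, and levels of different genes are compared only as TPM, which also divides by transcript length. All 6 granule neuron and all 6 Purkinje neuron markers, which define the labelled tissue, were detected. The ribosomal protein genes took between 1.09% and 1.21% of all counts in each library. A gene was tested when it had at least 10 counts in enough libraries, which 80 of the 83 members had, 48 of the large and all 32 of the small subunit. The 3 others are paralogs of the large subunit. Rpl10l, a paralog of Rpl10 known from the testis, had 0 counts in every library, which allows a level of up to 0.206 CPM at these depths (3 counts, counting error only). Rpl39l, also known from the testis, had 1 count in 1 normal-Mn library. Rpl3l, the muscle paralog of Rpl3, had from 1 to 12 counts per library.

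The start sites of these genes are shown first because the TOP tract is the sequence feature for which their mRNAs are best known. RefSeq start sites (GRCm38.p6) were matched by symbol for 63 of the 83 members. A C at the start site followed by at least 4 pyrimidines was present in 14 of the 63 members (22.2%), 7 of each subunit, and in 3.01% of 27025 genes. Within 5 bases of the start site, such a tract was present in 29 members (46.0%) and in 21.2% of genes. Each window shown holds the 10 bases before the start site and 20 bases from it, at the edge of promoter and first exon, 5′ to 3′, and the capitals mark the tract. The first group holds members with a tract, among them Rps6, the phosphorylated protein by which mTORC1 activity is commonly followed, Rpl38 and Rplp2, and the pair Rps27 and Rps27rt, whose windows can be set side by side.
Rps6 (chr4:86857348-86857377, minus strand): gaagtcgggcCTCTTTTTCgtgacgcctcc
Rps10 (chr17:27635225-27635254, minus strand): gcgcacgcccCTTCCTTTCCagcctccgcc
Rps27 (chr3:90213629-90213658, minus strand): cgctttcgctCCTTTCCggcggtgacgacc
Rps27rt (chr9:114982720-114982749, minus strand): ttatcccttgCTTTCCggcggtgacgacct
Rpl15 (chr14:18270967-18270996, minus strand): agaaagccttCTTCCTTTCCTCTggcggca
Rpl35 (chr2:39005112-39005141, minus strand): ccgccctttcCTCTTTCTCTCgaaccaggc
Rpl38 (chr11:114668570-114668599, plus strand): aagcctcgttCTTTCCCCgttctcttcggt
Rplp2 (chr7:141447641-141447670, plus strand): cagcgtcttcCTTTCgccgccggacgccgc
The second group holds members to which the comparison of the diets returns and whose annotated start site carried no tract of this kind, so that all of their letters are in lower case.
Rps4x (chrX:102189372-102189401, minus strand): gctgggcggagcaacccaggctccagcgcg
Rps7 (chr12:28635934-28635963, minus strand): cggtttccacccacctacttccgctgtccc
Rps26 (chr10:128626487-128626516, minus strand): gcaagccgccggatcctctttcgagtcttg
Rps28 (chr17:33824543-33824572, minus strand): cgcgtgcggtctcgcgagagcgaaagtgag
Rplp0 (chr5:115559457-115559486, plus strand): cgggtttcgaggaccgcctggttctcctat

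The tracts of the first group were from 5 to 13 bases long, with the longest in Rpl15 and the shortest in Rplp2. No tract in the second group says only that these letters are not at the annotated start site. In the 300 bases around the start site, the letters CCGGAAG, which match the binding motif of ETS factors, were found on either strand in 25 of the 63 members (39.7%) and in 9.93% of genes. The letters AAGATGG were present in 10 members (15.9%) and in 7.28% of genes. The letters TATAAA, a form of the TATA box, were present in 6 members (9.52%) and in 15.7% of genes. These matches are descriptions and not binding sites.

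Ribosomal protein mRNAs were abundant and lay close together in level. The median level of the 80 tested members was 421 TPM, while the median of 16105 tested genes with a known length was 16.6 TPM. Of the 80 members, 74 lay above the 95th percentile of these genes, and 69 lay within 2-fold of the members' median. The median was 437 TPM for the large and 373 TPM for the small subunit. Rplp1, an acidic protein of the stalk that recruits elongation factors, had the highest mean level, at 982 ± 79.2 TPM (SD, n = 6 libraries). Rpl13a, which is also known for a regulatory role outside the ribosome, followed at 859 ± 48.2 TPM. Rps15, a protein of the head, and Rps14, of the platform of the small subunit, were the highest of that subunit, at 769.7 ± 34.0 and 692 ± 27.5 TPM.

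The paralogs stood at the low end. Rpl36al, a paralog of Rpl36a, had 157 ± 10.4 TPM, and Rpl7l1, a paralog of Rpl7 known from ribosome assembly, had 76.7 ± 5.56 TPM. Rps27l, a paralog of Rps27 known as a p53 target, had 56.5 ± 8.69 TPM. Rps27rt, a copy of Rps27 with 89.8% of its 50-base stretches in another gene, had 5.42 ± 1.22 TPM. Apart from Rps20, every other tested member had a higher mean level than these 4. The level of Rps20, a protein of the small subunit head, was 50.8 ± 4.10 TPM, but its annotated coding transcript is 3706 bases long. Per coding length it ranked at 52 of 80, whereas Rps27l ranked at 79. Between neighbors in the order of levels, the ranges over the 6 libraries overlapped in all but 4 of 79 pairs, so that most neighbors did not differ beyond their spread. Rpl41, whose protein is among the shortest known, ranked at 6 by transcript length and at 1 by coding length, at 707 ± 53.7 TPM.

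**Figure D1:**
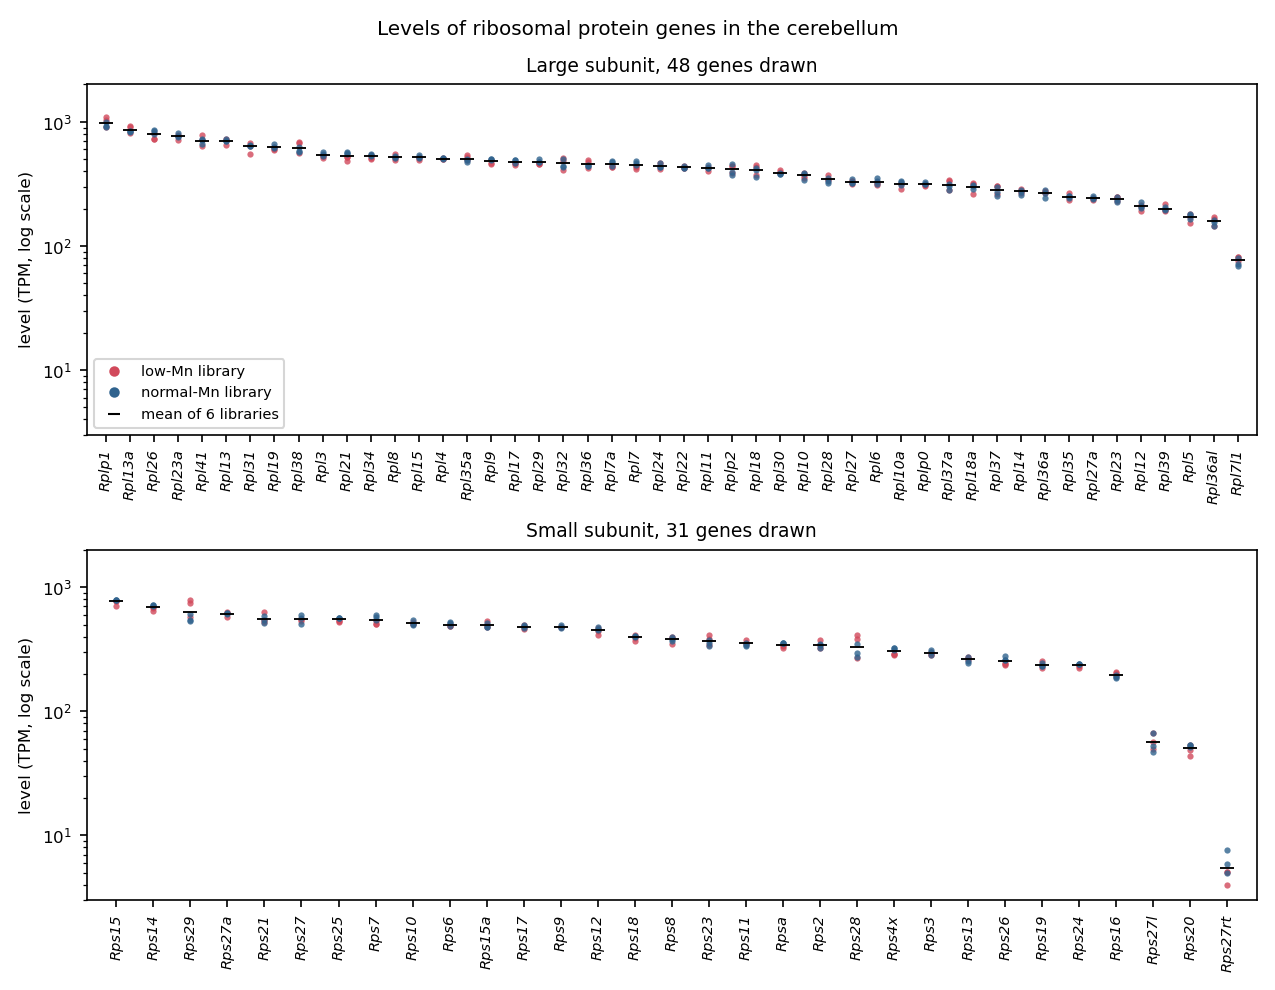
Level of the tested ribosomal protein genes, all but 1 of them drawn, in TPM on a log scale, with 1 point per library (red for low-Mn, blue for normal-Mn) and a bar at the mean of 6 libraries, ordered by mean within each subunit. Most members lie between 200.2 TPM for Rpl39 and 982 TPM for Rplp1, and the paralogs Rpl7l1, Rps27l and Rps27rt lie below them together with Rps20.

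Comparing the low-Mn with the normal-Mn diet asks whether the ribosomal protein genes respond to low dietary Mn. With edgeR's quasi-likelihood test and Benjamini-Hochberg adjustment over all tested genes (threshold 0.05), 0 of the 80 members passed, while 96 of 16123 genes (0.595%) did. The smallest adjusted p of a member was 0.0911 from edgeR, for Rps4x. At an unadjusted p under 0.05, 8 members (10%) were lower on the low-Mn diet, where 5.58% of all genes were, and 1 member (1.25%) was higher, where 6.54% of all genes were. With limma-voom these counts were 9 and 1, where 5.59% of all genes were lower and 6.65% higher. With DESeq2 they were 8 and 1 of 82 members, where 2.39% of genes were lower and 2.91% higher. These DESeq2 shares are over 26954 genes with any count, not over the 16123 filtered genes. They therefore cannot be set directly beside the shares from edgeR and limma-voom. After adjustment limma-voom called no member, while DESeq2 with default settings called 1, Rps4x (adjusted p = 0.0401 from DESeq2). The 3 low-Mn libraries lay below all 3 normal-Mn libraries in 13 members (16.25%), compared with 8.32% of all genes, and above them in 0 members, compared with 8.79% of all genes. The 13 were 5 of 48 in the large subunit (10.4%) and 8 of 32 in the small subunit (25%).

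The differences were small. The median log2 fold change of the members was -0.029, a fold of 0.980, and that of all tested genes was -0.0025. Of the members, 52 (65%) were below 0 and 28 above, while 50.8% of all genes were below 0. The large subunit had a median of -0.021 and the small subunit one of -0.034. The 95% confidence interval of the log2 fold change stayed within 1.25-fold in either direction for 76 of the 80 members, including all 48 of the large subunit. The 4 others were Rps27l, Rps27rt, Rps28 and Rps29. Without low-Mn replicate 3 the median was -8.4e-04, 40 of 80 members were below 0, and 6 were lower and 7 higher at an unadjusted p under 0.05. In that fit 5.49% of all genes were lower and 6.38% higher. Without normal-Mn replicate 2 the median was -0.0051, 43 members were below 0, and the counts were 3 lower and 2 higher, where 4.16% and 5.03% of all genes were.

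**Figure D2:**
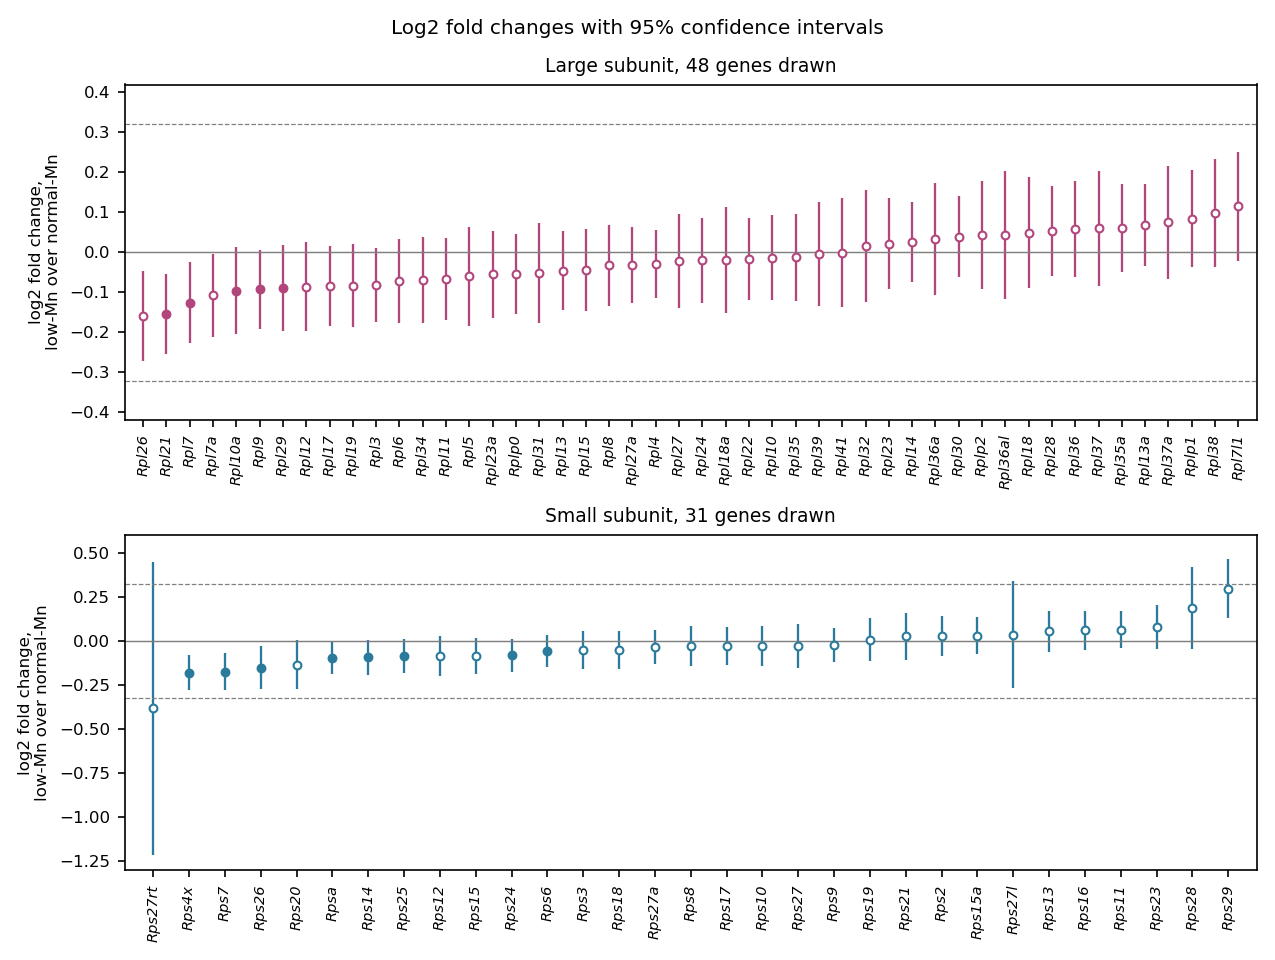
Difference in log2 CPM between the diets, low-Mn minus normal-Mn, of the tested members with its 95% confidence interval from edgeR, ordered by value within each subunit, where filled points are members whose 3 low-Mn libraries all lay below the 3 normal-Mn libraries and dashed lines mark 1.25-fold. All but 1 of the tested members are drawn. All but 4 of the intervals drawn lie between the dashed lines, and the 13 filled points, 5 of the large and 8 of the small subunit, all lie below 0.

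Among the small subunit proteins, Rps4x, an X-linked protein of the body of the subunit (ENSMUSG00000031320, chromosome X, 102184941 to 102189394 in GRCm38, as for all genes here), had the smallest p. Its level was 129, 127 and 128 CPM in the low-Mn libraries and 144, 151 and 140.0 CPM in the normal-Mn libraries. All low-Mn values lay below all normal-Mn values, with a gap wider than the range of the low-Mn libraries but not than that of the normal-Mn libraries. The log2 fold change was -0.18 (standard error 0.0471), from 145 ± 5.63 to 128 ± 1.44 CPM (SD, n = 3 mice each), and the adjusted p was 0.0911 from edgeR. Across all alternatives this adjusted p ranged from 0.0247 to 0.321. Of the 50-base stretches of its mRNA, 72.2% also occur in another annotated gene, so that its reads can fit several genes. Its expected counts were nevertheless whole numbers, apart from 3175.02 in normal-Mn replicate 2.

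Rps7, which takes part in assembly of the small subunit and binds Mdm2 outside it (chromosome 12, 28630854 to 28635953), had 189, 191 and 199.9 CPM on the low-Mn diet and 204, 234 and 217 CPM on the normal-Mn diet. The diets did not overlap, but the highest low-Mn and the lowest normal-Mn library were close. The log2 fold change was -0.18, with a standard error of 0.0506 and an adjusted p of 0.125 from edgeR, and over the alternatives the adjusted p ranged from 0.0146 to 0.454. Rps26, which lies at the mRNA exit channel (chromosome 10, 128624534 to 128626747), had 74.3, 76.5 and 75.4 CPM on the low-Mn diet and 79.7, 91.3 and 80.3 CPM on the normal-Mn diet. The low-Mn libraries were again all lower, and normal-Mn replicate 2 stood above the other normal-Mn libraries (log2 fold change -0.15, standard error 0.0584, adjusted p = 0.284 from edgeR). Rpsa, the laminin receptor precursor, which sits at the back of the small subunit, had 253, 246 and 238 CPM against 260.2, 271 and 257 CPM, also without overlap (log2 fold change -0.10, adjusted p = 0.371 from edgeR).

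Rps29, a zinc-binding protein of the small subunit head (ENSMUSG00000034892, chromosome 12, 69157722 to 69159186), had the highest log2 fold change of all members. Its level was 140.2, 133 and 102 CPM in low-Mn replicates 1 to 3 and 107, 102 and 95.9 CPM in normal-Mn replicates 1 to 3. Low-Mn replicates 1 and 2 stood above every normal-Mn library, while low-Mn replicate 3 lay within the normal-Mn range. The means were 125 ± 20.2 and 102 ± 5.77 CPM (SD, n = 3 each), which gave 0.30 as the log2 fold change, with a standard error of 0.0802 and an adjusted p of 0.103 from edgeR. Without low-Mn replicate 3 the log2 fold change was 0.42 and Rps29 passed (adjusted p = 0.00235 from edgeR), whereas without low-Mn replicate 1 it was 0.20 (adjusted p = 0.397 from edgeR). Its adjusted p ranged from 2.9e-05, with no filter on low counts, to 0.850, with DESeq2 without independent filtering.

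Rps28, a small protein of the head and, like Rpl38, named after its values were seen, was split between the libraries in a like way. It had 47.4, 51.1 and 33.2 CPM on the low-Mn diet and 42.8, 38.5 and 34.2 CPM on the normal-Mn diet, so that the low-Mn libraries held both its highest and its lowest value (log2 fold change 0.18, adjusted p = 0.539 from edgeR). Rpl38, known for its part in the translation of Hox mRNAs, had 107, 109 and 88.9 CPM against 98.3, 95.2 and 91.2 CPM (log2 fold change 0.10, adjusted p = 0.579 from edgeR). In 12 of the 80 members (15%), low-Mn replicates 1 and 2 both exceeded all normal-Mn libraries, as in 14.9% of all genes. That share of all genes includes the 8.79% in which every low-Mn library exceeded all normal-Mn libraries, which was so in 0 members. All 12 members thus showed the split, while among all genes its share was below 14.9%.

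Of the large subunit, the smallest p belonged to Rpl21 and Rpl26. Rpl21 (chromosome 5, 146832890 to 146837032) had 215, 199.98 and 214 CPM on the low-Mn diet and 227, 248 and 226 CPM on the normal-Mn diet. All low-Mn libraries were lower (log2 fold change -0.15, standard error 0.0484, adjusted p = 0.177 from edgeR, range over the alternatives 0.0435 to 0.499). Rpl26, which is also known to bind the p53 mRNA (chromosome 11, 68901583 to 68906989), had 176, 195 and 176 CPM against 191, 218 and 201 CPM. Here the diets overlapped, because low-Mn replicate 2 exceeded normal-Mn replicate 1 (log2 fold change -0.16, standard error 0.0542, adjusted p = 0.217 from edgeR, range over the alternatives 0.0419 to 0.581). The adjusted p of Rps7, Rpl21 and Rpl26 was under 0.05 with no filter on low counts. Rpl7 and Rpl9 did not overlap between the diets either, while Rpl7a did, with log2 fold changes of -0.13, -0.09 and -0.11 (adjusted p = 0.287, 0.434 and 0.388 from edgeR). Rpl7 had 222 to 238 CPM on the low-Mn diet and 238 to 267 CPM on the normal-Mn diet, so that its nearest libraries were almost level.

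**Figure D3:**
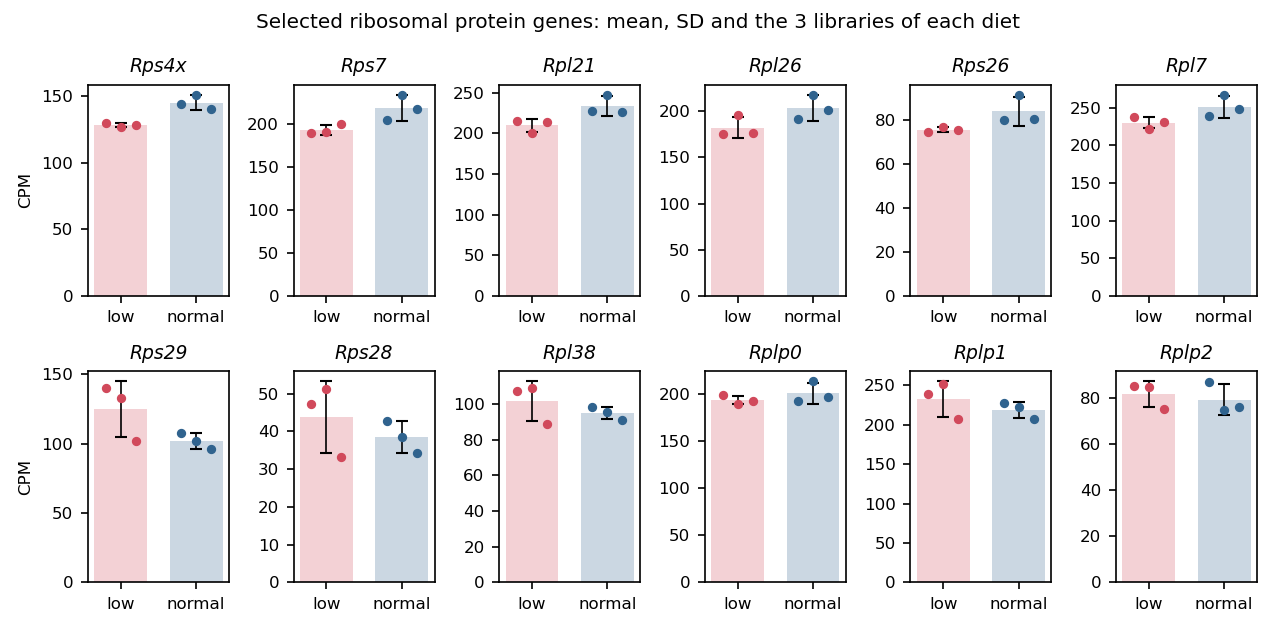
Level in CPM of 12 ribosomal protein genes, with a bar at the mean, an error bar of 1 SD and a point for each of the 3 libraries of the low-Mn (red) and normal-Mn (blue) diet, drawn in replicate order from left to right. In Rps4x, Rps7, Rpl21, Rps26 and Rpl7 the low-Mn points all lie below the normal-Mn points, and in Rps29, Rps28, Rpl38 and Rplp1 the first and second low-Mn points lie high and the third low.

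The stalk proteins, Rplp0, Rplp1 and Rplp2, bind the elongation factors to the large subunit. Rplp0, whose mRNA was the reference of the study's qPCR, had 199, 189.9 and 192 CPM on the low-Mn diet and 193, 214 and 196 CPM on the normal-Mn diet. The diets overlapped, and normal-Mn replicate 2 was the highest library. The means were 194 ± 4.53 and 201 ± 11.1 CPM (SD, n = 3 each), which gave -0.05 as the log2 fold change, with a 95% interval from -0.15 to 0.05 (adjusted p = 0.709 from edgeR). Rplp1 had 239, 252 and 207 CPM against 227, 222 and 208 CPM (log2 fold change 0.08), and Rplp2 had 84.9, 84.9 and 75.2 CPM against 86.9, 74.8 and 76.0 CPM (log2 fold change 0.04). Both overlapped between the diets (adjusted p = 0.616 and 0.856 from edgeR).

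Rps6 had 202, 196 and 196 CPM on the low-Mn diet and 204, 205 and 209.6 CPM on the normal-Mn diet. The low-Mn libraries were all lower by a small margin, with a log2 fold change of -0.06 (95% interval -0.15 to 0.03, adjusted p = 0.642 from edgeR). It was also the member with the least spread within a diet, with an SD of log2 CPM of 0.0245. Rps27a, which is made as a fusion with ubiquitin, had 184, 181 and 169 CPM against 179, 186 and 181 CPM (log2 fold change -0.04, adjusted p = 0.819 from edgeR). Rpl41 had 142 ± 14.97 and 142 ± 10.9 CPM (SD, n = 3 each) and a log2 fold change of -0.0014, the closest to 0 of all members (95% interval -0.14 to 0.14). The members named for their level, Rpl13a, Rps15, Rps14 and Rps20, had log2 fold changes of 0.07, -0.08, -0.09 and -0.14 (adjusted p = 0.630, 0.518, 0.429 and 0.419 from edgeR), and only Rps14 among these 4 did not overlap between the diets.

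Of the paralogs, Rpl7l1 had 49.5, 49.3 and 45.7 CPM on the low-Mn diet and 47.4, 43.5 and 42.4 CPM on the normal-Mn diet, and its value of 0.12 was the highest log2 fold change of the large subunit (adjusted p = 0.502 from edgeR). Low-Mn replicate 3 lay within the normal-Mn range. Rpl36al and Rps27l had log2 fold changes of 0.04 and 0.03 (adjusted p = 0.880 and 0.958 from edgeR). Rps27rt had the lowest log2 fold change of all members, -0.38, but at levels of only 0.687 to 0.872 CPM on the low-Mn and 0.842 to 1.30 CPM on the normal-Mn diet. Its 95% interval ran from -1.21 to 0.45 (adjusted p = 0.766 from edgeR), so that these data do not settle its direction. The X-linked members Rpl10, Rpl36a and Rpl39 had log2 fold changes of -0.01, 0.03 and -0.0048, which unlike that of Rps4x lay close to 0 (adjusted p = 0.951, 0.897 and 0.983 from edgeR).

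The members varied together from library to library, with an SD of their median log2 level of 0.0530 within a diet, which exceeds the size of the median difference between the diets. Measured against the normal-Mn mean of each gene, the median log2 level over the 80 members was -0.0039, 0.0038 and -0.098 in low-Mn replicates 1 to 3 and -0.022, 0.048 and -0.048 in normal-Mn replicates 1 to 3. Low-Mn replicate 3 stood lowest and normal-Mn replicate 2 highest, and the other libraries of both diets lay between them. What sets these libraries apart was not tested. Low-Mn replicate 3 was the lowest library of its diet in 62 members (77.5%), compared with 33.8% of all genes, and normal-Mn replicate 2 the highest of its diet in 56 members (70%), compared with 34.7% of all genes. Normal-Mn replicate 3 was the lowest of its diet in 45 members (56.25%), compared with 34.1% of all genes. In summed levels the members took 1.16%, 1.17% and 1.09% of counts on the low-Mn diet and 1.15%, 1.21% and 1.14% on the normal-Mn diet.

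Both subunits showed this order of libraries. The ratio of the summed CPM of the large to that of the small subunit was 1.801, 1.79 and 1.77 on the low-Mn diet and 1.78, 1.78 and 1.77 on the normal-Mn diet, or 1.79 ± 0.0152 and 1.78 ± 0.0102 (SD, n = 3 each). The difference between these means was smaller than the SD of the low-Mn libraries. The median log2 fold change of the large subunit exceeded that of the small one by 0.012, which was less than the SD of this difference over libraries of a diet (0.0189). Without low-Mn replicate 3 it was 0.042.

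**Figure D4:**
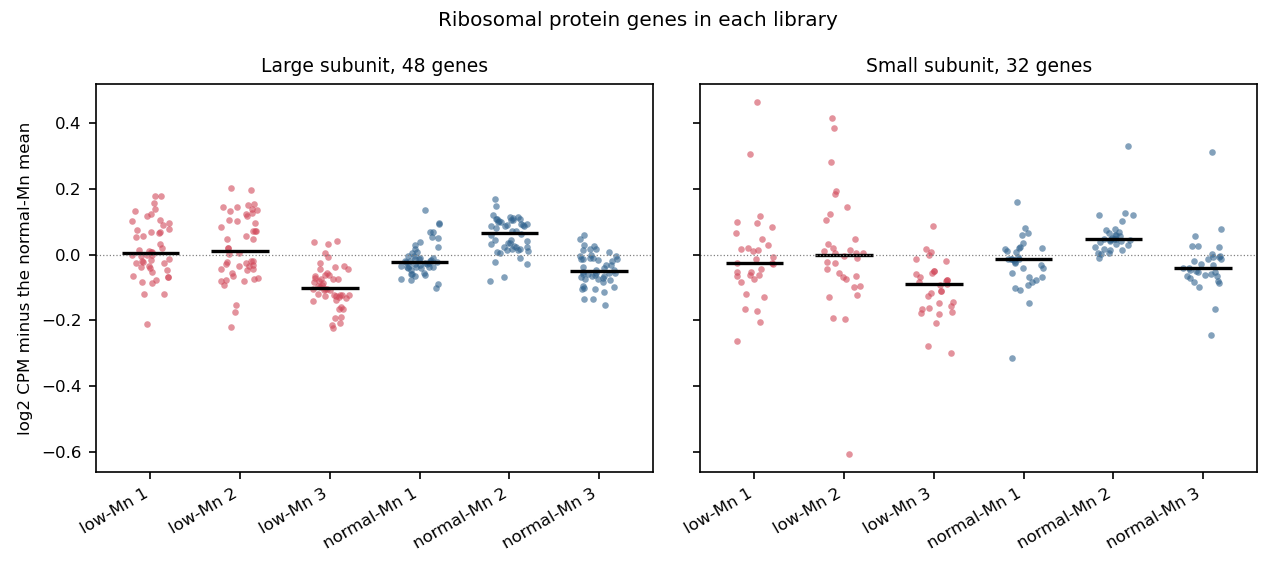
Log2 CPM of each tested member minus its mean over the normal-Mn libraries, with 1 point per gene, a bar at the median of each library and the diets in red (low-Mn) and blue (normal-Mn). In both subunits low-Mn replicate 3 has the lowest median (-0.10 for the large and -0.091 for the small subunit) and normal-Mn replicate 2 the highest (0.066 and 0.046).

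Within a diet, the SD of log2 CPM had a median of 0.0706 over the 78 members above 20 CPM and of 0.0636 over 5813 genes of at least the same level. Rps27l, Rps28, Rps27rt and Rps29 spread the most, with SDs of 0.263, 0.262, 0.261 and 0.182, and these are also the 4 members whose intervals were not within 1.25-fold. Rps6, Rpl4 and Rpl27a spread the least, with SDs of 0.0245, 0.0266 and 0.0277.

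Counting of these genes is complicated by their pseudogenes, since reads that fit several genes are divided by estimation. Of the tested members, 40 of 80 shared at least 50% of the 50-base stretches of their mRNA with another annotated gene, and the median share was 50.3%. The highest shares were those of Rps27, at 98.6%, Rpl35, at 95.1%, Rpl5, at 93.8%, and Rpl9, at 93.3%, while Rps3 shared 2.96%. A high share does not show how many reads were divided. The expected counts of Rps27 were whole numbers apart from 1705.99 and 1949.15 in normal-Mn replicates 1 and 2. Together 182 annotated pseudogenes matched 63 of the members, and they took 113 to 141 CPM per library, or 0.960% to 1.15% of the counts of members and pseudogenes. The largest was Gm15500, a copy of Rpl5, at a mean of 48.7 CPM, and 41 of the 182 were at 0 in every library. The 40 members that shared at least 50% had a median log2 fold change of -0.049, and the other 40 one of -0.010. Adding the counts of each pseudogene to its member left the median at -0.030 and called no member.

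By start site, the 14 members with a tract at the annotated start had a median log2 fold change of 0.0067 and the 46 tested members without it had -0.031. The difference between such medians varied over the libraries of a diet with an SD of 0.0178. Split by a tract within 5 bases of the start, the medians were closer, at -0.024 for 29 and -0.030 for 31 members. The 24 tested members with CCGGAAG had a median of -0.048 and the 36 without it -0.018. Members of both groups shown above thus lay on either side of 0, with Rps6 at -0.06, Rps10 at -0.03 and Rpl38 at 0.10 among those with a tract and Rps4x at -0.18, Rplp0 at -0.05 and Rps28 at 0.18 among those without.

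Other genes of translation were listed by function, and passing refers here to edgeR's test unless another tool is named. For counts at an unadjusted p under 0.05 in all these lists, edgeR's shares over all genes were 5.58% lower and 6.54% higher. Of the 5 ribosomal proteins and ubiquitin-like fusions that the naming rule misses (Rps3a1, Rpl22l1, Fau and Rack1 among them), none passed, 0 had an unadjusted p under 0.05, and the median log2 fold change was 0.0082. Rps3a1 had 223, 228 and 225 CPM against 229, 253 and 238 CPM (log2 fold change -0.09, adjusted p = 0.435 from edgeR). None of 14 elongation and termination factors passed with edgeR (median -0.025), 3 were lower at an unadjusted p under 0.05, and the smallest p was that of Eef1a1, which brings aminoacyl-tRNAs to the ribosome. Its level was 1347, 1326 and 1372 CPM on the low-Mn diet and 1474, 1517 and 1437 CPM on the normal-Mn diet, without overlap (log2 fold change -0.13, adjusted p = 0.176 from edgeR). DESeq2 at default settings called Eef1a1 lower (adjusted p = 0.0059 from DESeq2), while limma-voom did not (adjusted p = 0.073 from limma). None of 32 initiation factors passed (median -0.039) and 4 were lower at an unadjusted p under 0.05, with the smallest p for the eIF3 subunit Eif3e (log2 fold change -0.22, adjusted p = 0.125 from edgeR).

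Of 17 genes that are not ribosomal proteins but whose mRNAs are known to carry TOP tracts, none passed with edgeR or limma-voom and 1, Eef1a1, with DESeq2, while 8 were lower and 0 higher at an unadjusted p under 0.05 with edgeR, 16 were below 0 and the median was -0.087. In 9 of them (52.9%) the low-Mn libraries all lay below the normal-Mn libraries, where 8.32% of all genes and 16.25% of the ribosomal protein genes did so. Their summed level was 4604 to 4672 CPM on the low-Mn and 4866 to 5082 CPM on the normal-Mn diet, and 12 of the 17 also stand in another of these lists. Of 36 genes of the mTORC1 pathway and of TOP mRNA binding, 6 were higher and 2 lower at an unadjusted p under 0.05 with edgeR, with a median of 0.033. The low-Mn libraries all lay above the normal-Mn libraries in 7 of them (19.4%) and below in 3 (8.33%), where 8.79% and 8.32% of all genes did so. After adjustment DESeq2 at default settings called 2 higher, while with edgeR 1 rose and 0 fell. The gene that rose was Ddit4, an inhibitor of mTORC1, which had 81.4, 81.0 and 67.0 CPM on the low-Mn diet and 53.4, 53.1 and 49.97 CPM on the normal-Mn diet (log2 fold change 0.55, standard error 0.0687, adjusted p = 5.5e-04 from edgeR). Low-Mn replicate 3 was the lowest of its diet in Ddit4 too. Of 40 tested genes of ribosome biogenesis, none passed, 2 were higher at an unadjusted p under 0.05, and the median was 0.039. The smallest p was that of Nvl, an ATPase of large subunit assembly, at 0.25 (adjusted p = 0.0871 from edgeR). Of 78 mitochondrial ribosomal protein genes, none passed, 2 were lower and 1 higher at an unadjusted p under 0.05, and the median was 0.0073, with the smallest p for Mrps18b at -0.30 (adjusted p = 0.240 from edgeR). Besides Eef1a1, limma-voom and DESeq2 called no gene of these translation and ribosome lists in which edgeR called none.

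**Figure D5:**
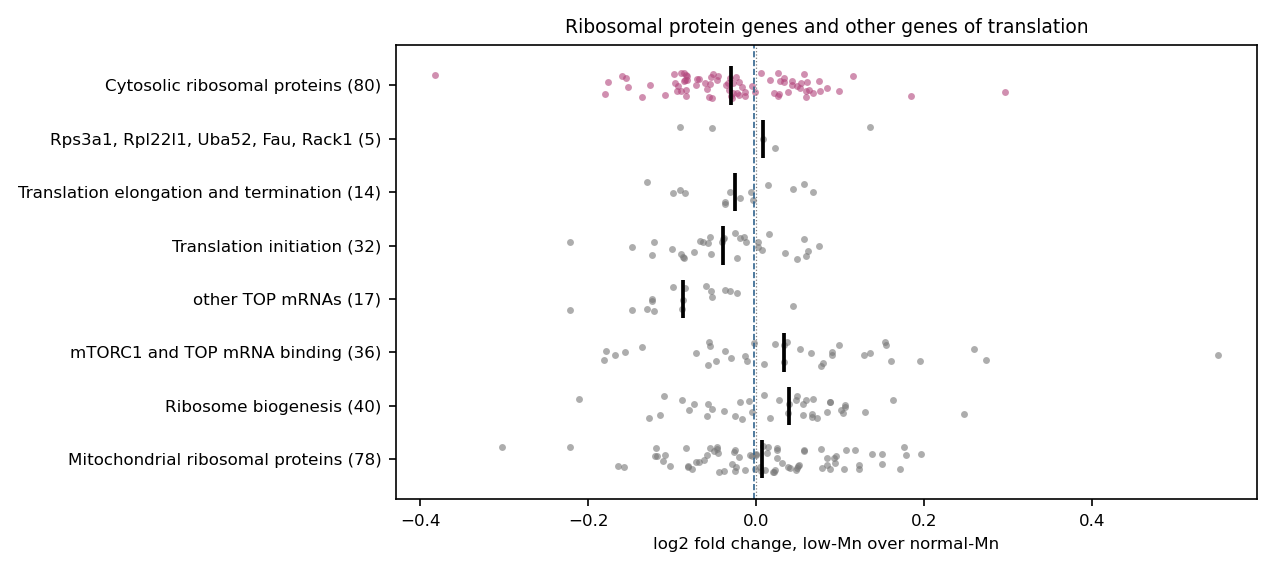
Difference in log2 CPM between the diets, low-Mn minus normal-Mn, of each tested gene in the cytosolic ribosomal protein set and in 7 lists of related genes, with a bar at the median, the number of genes in parentheses, a dotted line at 0 and a dashed line at the median of all genes. The medians run from -0.087 for the other TOP mRNAs to 0.039 for ribosome biogenesis, with -0.029 for the cytosolic ribosomal proteins, and the point farthest to the right is Ddit4 at 0.55.

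Markers of some other cell types differed between the diets beside these values. The 8 oligodendrocyte markers, all detected, summed to 6765 to 7038 CPM on the low-Mn and 7214 to 8011 CPM on the normal-Mn diet, with 7 of 8 below 0 and 1 of the 8 that fell. The sums of the 6 astrocyte and Bergmann glia markers were 2900 to 2958 and 3049 to 3167 CPM, those of the 6 microglia markers 125 to 132 and 142 to 145 CPM, and those of the 6 meninges and fibroblast markers 245 to 274 and 293 to 334 CPM. These sums were all lower on the low-Mn diet without overlap, whereas those of the 6 granule neuron markers were higher, at 2706 to 2741 against 2631 to 2699 CPM. The single granule neuron markers were divided, with 4 above and 2 below 0. Without overlap 2 were higher and 1 lower, where 8.79% and 8.32% of all genes were. The sums of the choroid plexus markers, with 2192 to 2721 and 2531 to 3067 CPM, overlapped between the diets, as did those of the Purkinje neuron, endothelial and red blood cell markers. All 6 choroid plexus markers were nevertheless below 0, with a median log2 fold change of -0.25. With edgeR 5 of them were lower at an unadjusted p under 0.05, where 5.58% of all genes were. The choroid plexus marker Kl and the meningeal marker Igf2 fell (log2 fold changes -0.51 and -0.26, adjusted p = 0.00183 and 0.0433 from edgeR). After adjustment, limma-voom called Kl but no meninges and fibroblast marker. DESeq2 at default settings called Kl and Igf2, with 2 choroid plexus markers lower in all. It also called 1 astrocyte and Bergmann glia marker lower and 1 granule neuron marker higher. No marker of these lists was at 0 in every library. The part of these cell types in the values of the ribosomal protein genes was not tested.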

How the data were processed

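Cerebellar RNA of 3 low-Mn and 3 normal-Mn mice was analysed, grouped by diet as labelled. Per the methods, cDNA was primed with oligo-dT, sequenced in pairs on an Illumina instrument and aligned by STAR. The submitters' processing notes name mm10, RSEM and FastQC besides DESeq2. Tool versions were not given in the sources used here. Expected counts are what the authors deposited, in which RSEM divides ambiguous reads among genes, and they carry no normalization. Of them, 7.13% to 7.75% were not whole numbers. The table names the low-Mn columns by a replicate number alone. Its 92 spike-in entries were 0 throughout and were left out. Symbols were found in GENCODE M21 for 53620 of 53715 mouse genes.

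Expected counts were rounded, kept by filterByExpr (minimum count 10, minimum total 15), scaled by TMM and tested with glmQLFit and glmQLFTest in edgeR 4.0.16 (R 4.3.3), with Benjamini-Hochberg adjustment over all 16123 tested genes and a threshold of 0.05. The tests were first tested on simulated counts. TPM used the shortest of the best ranked (APPRIS) transcripts of each gene. RefSeq windows held 250 bases before and 50 from the start site. Sharing of sequence was counted in 50-base stretches of 1 principal transcript per member. Figures were drawn with matplotlib 3.10.9. A few genes are counted in the totals but not reported here.

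The members and lists were chosen with earlier results of these data known. The genes named are the 5 members of each subunit with the smallest p, the 2 of each with the highest and the lowest level, the extremes of fold change, the paralogs, the stalk proteins, Rps6, Rpsa, Rps27a and Rpl41, and of each pathway list the genes that passed or the one with the smallest p. Others are named after their values were seen. Alternatives were RLE and upper quartile factors, factors from all genes but the members (added after seeing the data), no filter, a mean of at least 100 counts, unrounded counts, limma-voom (limma 3.58.1), DESeq2 1.42.0 at default settings or with independent filtering off, a block on replicate number, a spline trend on length and GC content removed, pseudogene counts added to their members, and each replicate left out.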

Additional observations from a re-analysis of the deposited data

How the results depend on the processing

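The median log2 fold change of the members stayed below 0 under all 19 alternatives, from -0.053 without low-Mn replicate 2 to -8.4e-04 without low-Mn replicate 3, and the difference between the subunits stayed above 0, from 5.5e-04 to 0.042 over the libraries left out. The median of all tested genes was also below 0 under each alternative. Without low-Mn replicate 3 it was -0.0020, lower than that of the members. With upper quartile factors and with no filter it was -0.014. The count of members that passed, 0 in the fit reported, was 5 of 82 with no filter on low counts, where 424 of 26954 genes passed (Rps29 higher, and Rps4x, Rps7, Rpl21 and Rpl26 lower), 1 with DESeq2 at default settings (Rps4x), and 1 each with the replicate block, with the length and GC trend removed and with both together, which was Rps29 each time (adjusted p = 0.0212, 0.0259 and 0.00859 from edgeR). It was 0 to 1 when single replicates were left out, with Rps29 passing without low-Mn replicate 3. Other scaling factors, limma-voom, unrounded counts, a stricter filter and the added pseudogene counts called none. The counts at an unadjusted p under 0.05, 8 lower and 1 higher in the fit reported, also moved. With the length and GC trend removed they were 8 and 5, where 6.25% and 7.23% of all genes were. Adding the replicate block gave 9 and 5, where 6.38% and 7.39% of all genes were. Upper quartile factors gave 15 and 1, where 6.90% and 5.55% of all genes were. Over the whole table the count was 96 in the fit reported, 424 with no filter, 63 with limma-voom, 137 with DESeq2 at default settings, 177 with the trend removed, 207 with the trend removed and the replicate block, 128 with the replicate block alone, and 37 to 93 with single replicates left out. Of the calls in the fit reported, 69.8% were higher on the low-Mn diet, while 58.9% were with upper quartile factors and 51.4% with no filter.

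Of 455 values of the 24 named members under the alternatives, 444 kept their direction. Rpl41 was at 0.016 with the trend removed, with or without the replicate block, and from -0.077 to 0.074 over the replicates left out. The corresponding ranges were -0.0071 to 0.11 for Rpl36al, -0.088 to 0.22 for Rps27l and -0.061 to 1.5e-04 for Rps27a. These members did not pass under any of these settings, and the cause of the changes was not tested. Same-numbered libraries of the diets deviated from their group means with correlations of 0.030, -0.024 and 0.036 over all tested genes. Libraries with different numbers gave from -0.049 to 0.019. Correlations over all genes cannot tell whether the numbers pair the mice. Members below 1 CPM are measured with the least certainty, and those that share most of their sequence can have reads that fit several genes.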
